A study of Mus musculus with 43 samples.

Results

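Clustered protocadherins are cell adhesion proteins whose genes lie side by side in the alpha, beta and gamma clusters, and they are best known for giving single neurons distinct surface identities. In the alpha and gamma clusters, each of many variable first exons has its own promoter and is joined to constant exons that all the transcripts of that cluster share, whereas the beta genes have no such constant exons. Promoter choice differs from cell to cell, and DNA methylation of the variable promoters goes with their silence, so that a methylation level averaged over many cells can be intermediate. Hypermethylation over these clusters has been described in several human epithelial cancers. The data below are the methylation levels in these clusters in colonic epithelium and polypoid dysplasia of colitic mice.

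A site was taken from mouse chromosome 18 (mm9) where its position fell between 37.08 and 37.35 Mb (alpha), 37.41 and 37.67 Mb (beta) or 37.81 and 38.01 Mb (gamma). It was used where at least 20 reads covered it in at least 3 libraries of 1 group. Of 60 CCCGGG sites listed in these intervals, 15 met the rule, compared with 59174 of 173449 sites in the genome (25% against 34.1%). They were 5 of 20 alpha sites, 2 of 19 beta sites and 8 of 21 gamma sites. No annotation of the mm9 build was used here, so that the sites were not assigned to single genes or exons. In the RefSeq annotation of the GRCm38.p6 build, the clusters hold 14 alpha genes (Pcdha1 to Pcdha12, Pcdhac1 and Pcdhac2), 22 beta genes (Pcdhb1 to Pcdhb22) and 21 protein-coding gamma genes (Pcdhga, Pcdhgb and Pcdhgc), with Pcdhgb8 as a transcribed pseudogene.

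All libraries came from female Swiss Webster mice that received azoxymethane (AOM), a colon carcinogen, and then dextran sulfate sodium (DSS), which causes colitis. The mice were placed on 0, 2 or 8 mg folic acid (FA) per kg chow for 16 weeks and were killed at 27 weeks of age, and no untreated mice are among the libraries used here. Cells were laser-microdissected from fixed, paraffin-embedded colon. The first cohort held non-dysplastic (ND) epithelium, named 0ND, 2ND and 8ND by the dose of FA, from 5, 7 and 6 mice. The second cohort held 0ND and 8ND epithelium from 6 mice each, and polyps (P) from 6 mice on 0 mg FA (0P) and, as 7 lesions, from 6 mice on 8 mg FA (8P). In the paper, non-dysplastic samples were either epithelial cells or epithelium with the lamina propria. The labels do not say which kind a library holds, so the epithelium named here may include lamina propria. Its share may differ between cohorts and between polyps and epithelium, and its effect was not tested. Each value below is a percentage of methylated reads that the authors adjusted with spiked standards of known methylation, averaged over the cells of one library. A change in all cells and a change in the share of cells of a kind cannot be told apart in such a value.

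The deepest group of the second cohort was 8P, with a median of 9962939 reads per library, against medians of 3007253 to 4630591 reads in its other groups and 5205160 to 11427571 in the first. In 8ND of the second cohort, the library of mouse 1856 had at least 20 reads at 48630 sites of the genome. The other 8ND libraries of that cohort had 15893 to 21585 such sites, and the 8P lesions 47798 to 54855. The 15 sites are named here in order along the chromosome as A1 to A5, B1 and B2, and G1 to G8. All 15 were covered in 8P, and 8 of them in no other group (A1, A5, B1, B2, G3, G6, G7 and G8). In the epithelium groups 3 to 7 of the sites were covered, and in 0P 5 sites. The 7 were in 2ND of the first cohort, whose median of 11427571 reads was above that of 8P. A3, A4 and G2 were covered in all 7 groups. The comparisons by diet and between polyp and epithelium therefore rest on a few alpha and gamma sites, and most of the clusters can be described in 8P lesions only. Coverage was poorest in the beta cluster, with 1216 reads in all 43 libraries together, against 46879 in alpha and 23969 in gamma. Of the 60 sites, 50 had no other CCCGGG site within 500 bp, and 8 of these 50 (16%) were covered, against 27.0% of such sites in the genome.

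**Figure D1:**
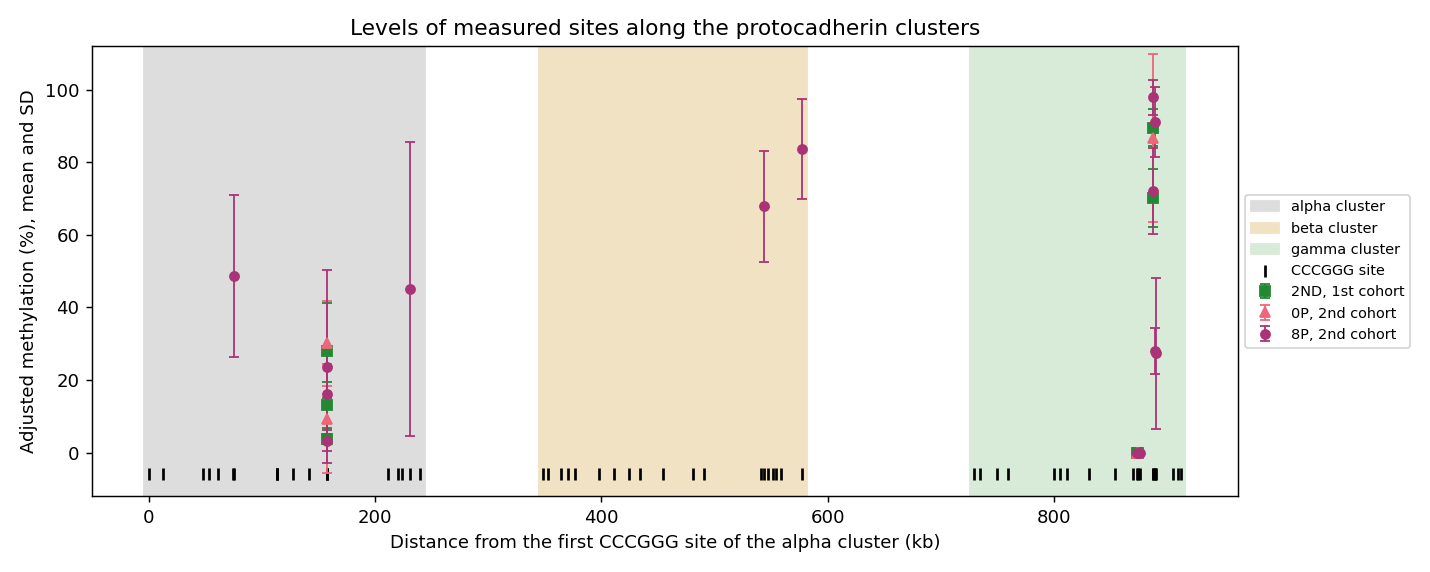
Adjusted methylation (%, mean with SD as bars) of each covered site against its distance (kb) from the first CCCGGG site of the alpha cluster, in 2ND of the first cohort (squares) and in 0P (triangles) and 8P (circles) of the second. Ticks under the points mark all 60 sites, shading marks the clusters, and most ticks have no point above them because only 15 sites were covered.

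Alpha cluster. The 5 alpha sites lay at 37167176 (A1), 37249548 (A2), 37249577 (A3), 37249752 (A4) and 37323007 (A5). A2, A3 and A4 lay within 204 bp of each other, yet differed in level in non-dysplastic epithelium of the first cohort. There A3 was at a few percent, A4 was in the low teens and A2 was higher again. A4 exceeded A3 in 17 of 18 mice, by 9.85 ± 5.31 percentage points (SD, n = 18 mice, exact sign-flip permutation test, two-sided, p = 1.53e-05). A2 exceeded A3, 29 bp away, in 12 of 13 mice, by 20.4 ± 13.3 points (exact sign-flip permutation test, p = 0.000488). A2 was covered by few reads, with a median ratio of 0.0615 of those at A3, whereas A4 and A3, 175 bp apart, had nearly equal reads (median ratio 1.05).

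In second-cohort epithelium these differences were smaller. A4 exceeded A3 by 2.91 ± 6.24 points, with 6 mice higher, 2 lower and 3 equal (SD, n = 11 mice, exact sign-flip permutation p = 0.156). A2 and A3 differed there by 0.642 ± 3.11 points in 5 mice (exact sign-flip permutation p = 0.625). Neither order seen in the first cohort was thus distinguishable from the spread in second-cohort epithelium. With 5 mice, the exact sign-flip permutation test of A2 against A3 could give no p under 0.0625. Epithelium and polyps of that cohort together gave A4 above A3 by 9.05 points over 12 mice (exact sign-flip permutation p = 0.00537). They gave A2 above A3 by 11.5 points over 8 mice (exact sign-flip permutation p = 0.0469), with 6 libraries higher, 4 lower and 2 equal. In polyps A4 exceeded A3 by 20.8 ± 18.6 points in 0P, with 4 of 5 lesions higher (exact sign-flip permutation p = 0.125), and by 12.8 ± 11.3 points in 8P, with 6 of 7 lesions higher (p = 0.0625 over 6 mice). A2 exceeded A3 by 20.5 ± 25.0 points in 8P, with 4 lesions higher and 1 lower. The exact sign-flip permutation p was 0.125 over 4 mice, the smallest that 4 mice can give. In 0P, A2 was above A3 in 0 of 2 lesions. Some mice gave epithelium to both cohorts. Across the 18 first-cohort libraries of all 3 diets the levels of A3 and A4 had a Pearson r of 0.557 and a Spearman rho of 0.323. The sites shared each library, its reads and its adjustment.

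Diet in the epithelium. A4 had nearly the same mean on the 3 diets in the first cohort. In 0ND its level was 2.13%, 7.93%, 14.0%, 15.2% and 26.2% in the 5 mice. In 2ND the lowest, median and highest of 7 mice were 7.76%, 10.8% and 25.9%, and in 8ND, of 6 mice, 7.58%, 14.8% and 17.7%. The ranges of 2ND and 8ND lay inside that of 0ND. Means were 13.1% ± 8.98 (SD, n = 5), 13.2% ± 6.31 (n = 7) and 13.9% ± 4.02 (n = 6). Against 0ND, 2ND differed by 0.0849 points (exact permutation test, two-sided, p = 0.981) and 8ND by 0.835 points (p = 0.842). In the second cohort the means were 10.4% ± 10.7 (SD, n = 6) in 0ND and 10.5% ± 9.45 (n = 5) in 8ND, a difference of 0.069 points (exact permutation p = 1). With an SD of 4 to 11 points in these groups, only large differences could have been seen.

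A3 and A2 likewise overlapped between diets (exact permutation p = 0.496 and 0.702 for 2ND against 0ND, and 0.6 for A2 in 8ND against 0ND). A3 averaged 4.65% ± 3.09 in 0ND (SD, n = 5), 3.70% ± 1.44 in 2ND (n = 7) and 2.44% ± 0.875 in 8ND (n = 6) of the first cohort. The smallest p was that of A3 in 8ND against 0ND, which differed by -2.22 points (exact permutation p = 0.113). In the second cohort A3 differed by 0.288 points between 8ND and 0ND (exact permutation p = 0.926). A2 averaged 24.2% ± 16.8 in 0ND (n = 3), 28.1% ± 13.1 in 2ND (n = 6) and 17.6% ± 15.1 in 8ND (n = 4), with single mice from 0% to 42.4%. In the second-cohort epithelium the same site lay between 0% and 5.90% in 5 libraries, each with 38 reads or fewer.

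**Figure D2:**
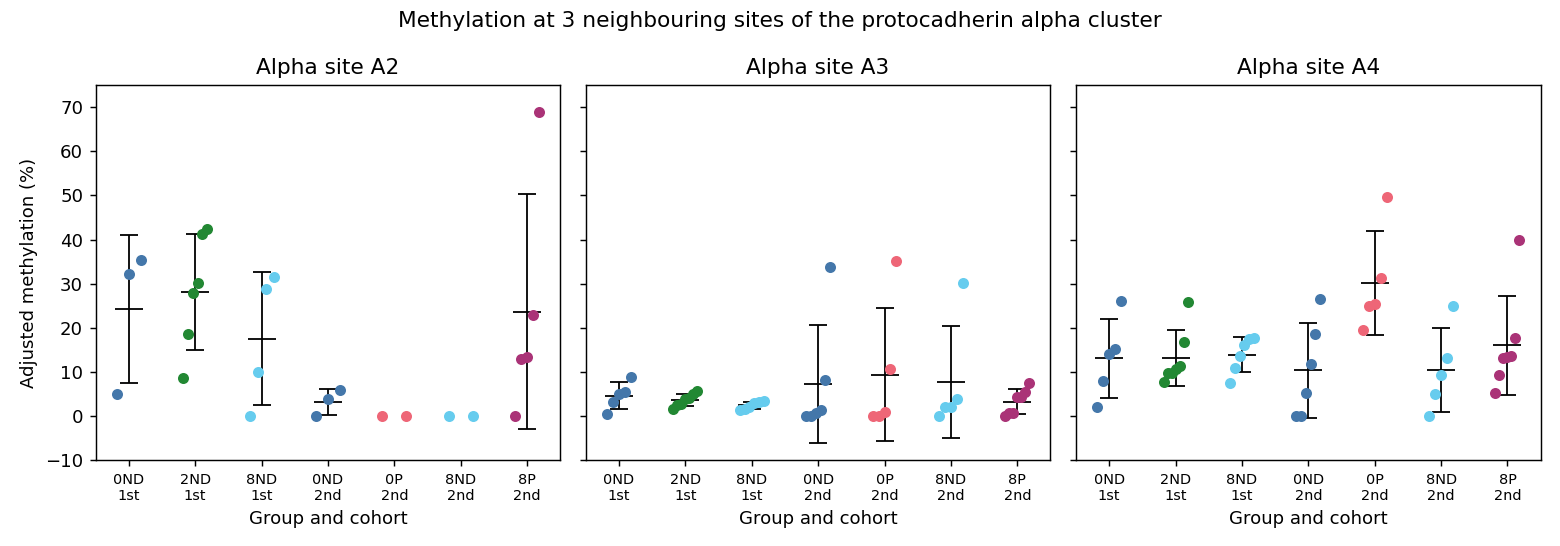
Adjusted methylation (%) at alpha sites A2, A3 and A4 in each library with at least 20 reads (points), by group and cohort, with the mean and SD (bars) where a group has at least 3 libraries. A3 lies mostly near 0, A4 overlaps between diets, and the 5 libraries of 0P at A4 range from 19.43% to 49.72%.

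The mean over the alpha sites of each library did not separate the diets. Over A3 and A4, the sites covered in every first-cohort library, it was 8.87% ± 5.86 in 0ND (SD, n = 5), 8.43% ± 3.64 in 2ND (n = 7) and 8.17% ± 1.93 in 8ND (n = 6). The differences from 0ND were -0.434 points in 2ND (exact permutation p = 0.870) and -0.691 points in 8ND (p = 0.820). In the second cohort 8ND exceeded 0ND by 0.178 points (exact permutation p = 0.955). When the first-cohort epithelium of mouse 1807 was left out of 0ND, 2ND and 8ND were higher than 0ND instead, by 1.74 and 1.48 points, with exact permutation p of 0.488 and 0.424.

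Of the clustered protocadherin sites, 0 of 5 met the criteria used by the study (unadjusted p under 0.05 and a difference over 5 points) in 2ND against 0ND, when 4.5% of all 21540 sites tested did. In 8ND against 0ND, 0 of 5 met them in the first cohort, when 4.75% of all sites did, and 0 of 3 in the second cohort, when 1.77% did. By limma and by a quasi-binomial model the counts of protocadherin sites were also 0, and no protocadherin site had an exact permutation or limma p under 0.05 before adjustment. With so few members tested, counts of 0 lie near these backgrounds.

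Alpha cluster in polyps. A4 was higher in 0P lesions than in 0ND epithelium. Its level was 19.4%, 25.1%, 25.4%, 31.3% and 49.7% in 5 lesions, from 188 to 437 reads each. In the epithelium it was 0%, 0%, 5.36%, 11.8%, 18.6% and 26.6% in 6 mice, from 33 to 308 reads. The groups overlapped only through the highest epithelium library, that of mouse 1805, which had 46 reads. The 0 of 96 and 0 of 33 methylated reads behind the 2 zeros allow raw levels of up to 3.13% and 9.09%.

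The mean was 30.2% ± 11.7 in 0P (SD, n = 5) and 10.4% ± 10.7 in 0ND (n = 6), a difference of 19.8 points (exact permutation test, two-sided, p = 0.0216). A4 met the criteria of the study, as 1 of 3 protocadherin sites tested, when 5.25% of all 18548 sites met them and 0.728% met them with the higher level in 0P. It did not pass adjustment over all sites (Benjamini-Hochberg adjusted p = 0.551, limma adjusted p = 0.502), which 0.14% of all sites passed. The sixth 0P lesion, of mouse 1805, was left out because it had 10 reads, all methylated. With it, at a minimum of 10 reads, the difference was 31.4 points (exact permutation p = 0.0130).

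Within mice, the polyp was higher than the epithelium in 5 of 5 mice on 0 mg FA, by 6.74 to 44.4 points and by 23.0 points on average. The exact sign-flip permutation p was 0.0625, the smallest that 5 pairs can give, so the paired test could not pass 0.05. Without any one library the difference stayed between 14.9 and 23.0 points, with exact permutation p from 0.00794 to 0.0476. The 0P libraries had 32.6% to 77.4% of their reads on the spiked standards, against 6.98% to 52.7% in 0ND of this cohort, and an effect of this was not tested. The epithelium libraries of mice 1805, 1808 and 1820 had over 8% of their reads on 100 sites, and leaving these out gave 18.3 points (exact permutation p = 0.0536). First-cohort epithelium had been measured in 3 of these mice. Against it, A4 in the polyp was 0.77 points lower in mouse 1807 and was higher by 35.7 points in mouse 1809 and by 16.1 points in mouse 1820. These differences cross cohorts whose adjustment differed in size. On raw percentages mouse 1807 was at 10.49% in that epithelium and 25.53% in the polyp, and the direction in mice 1809 and 1820 was unchanged.

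The 2 epithelium libraries of one mouse could themselves differ widely. Over 7 mice with A4 covered in both cohorts, the second-cohort value was lower in 5. The mean difference over all 7 was -6.67 points, with single differences from -15.2 to 8.90 points and a median size of 8.90 points. These differences depend on the adjustment, which was larger in the first cohort. In all 7 mice the second-cohort value stood higher against the first on raw percentages than after adjustment. Mouse 1807 went from 10.49% to 16.46% on raw percentages, whereas its adjusted level fell by 7.51 points. In the other mice the direction was the same on both scales. The mean of the raw differences was not computed. Cohort, library preparation, adjustment and the kind of tissue dissected cannot be told apart in these pairs.

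On 8 mg FA, polyps and epithelium were less far apart at A4. The level was 5.30%, 9.38%, 13.1%, 13.4%, 13.7%, 17.7% and 39.9% in the 7 lesions of 8P. In 8ND it was 0%, 5.01%, 9.24%, 13.1% and 25.0% in 5 mice. The lesion of mouse 1800 stood above all other libraries of both groups, and the remaining values overlapped. The mean was 16.1% ± 11.2 in 8P (SD, n = 7) against 10.5% ± 9.45 in 8ND (n = 5), a difference of 5.62 points (exact permutation p = 0.412). The polyp was higher in 3 of 5 mice, by 7.11 points on average (exact sign-flip permutation p = 0.4375). Of the protocadherin sites, 0 of 3 met the criteria of the study, when 5.53% of all sites did.

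**Figure D3:**
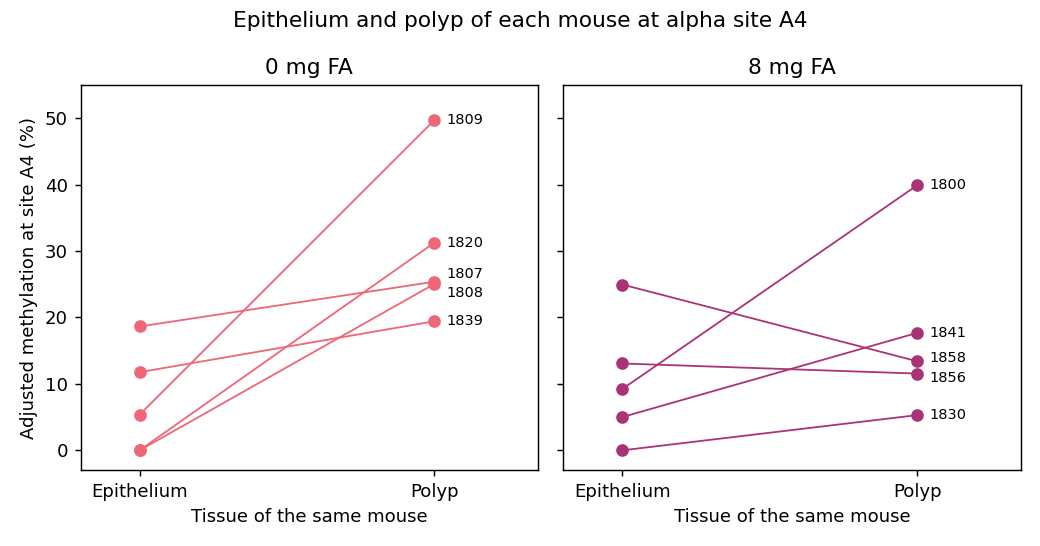
Adjusted methylation (%) at alpha site A4 in the second-cohort epithelium and the polyp of the same mouse (joined points, mouse numbers at the right), on 0 mg FA (left) and 8 mg FA (right), with both lesions of mouse 1856 averaged. All 5 lines go up on 0 mg FA, and 3 of 5 go up on 8 mg FA.

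The change from epithelium to polyp at A4 was not shown to differ between diets. It averaged 23.0 points on 0 mg FA and 7.11 points on 8 mg FA, 15.9 points apart (n = 5 mice each, exact permutation p = 0.159). The polyps of the 2 diets differed at A4 by -14.1 points (8P minus 0P, exact permutation p = 0.0619), and by -13.3 points with both lesions of mouse 1856 averaged (exact permutation p = 0.104). That value turned on single libraries, at -18.1 points without the 8P lesion of mouse 1800 (exact permutation p = 0.00216) and -16.8 points without the 0P lesion of mouse 1839 (p = 0.0485). Without the 0P lesion of mouse 1809 it was -9.21 points (exact permutation p = 0.173). Before adjustment with the standards, 8P and 0P were -15.7 points apart (exact permutation p = 0.0303). The values without single libraries and before adjustment count both lesions of mouse 1856 separately. They were not repeated with these lesions averaged, so their p may be too low. Of the protocadherin sites, 0 of 5 met the criteria of the study, when 3.56% of all 29118 sites did.

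At A3, 175 bp away, polyps and epithelium overlapped, and the changes at the neighbouring sites were not tested against each other. In 0P it was 0%, 0%, 1.00%, 10.7% and 35.1%, and in 0ND it was 0%, 0%, 0.83%, 1.42%, 8.16% and 33.9%. One library stood far above the others in each of these groups, that of mouse 1807 in 0P and that of mouse 1805 in 0ND. The groups were 1.99 points apart (exact permutation p = 0.662). In 8P, A3 averaged 3.32% ± 2.83 (SD, n = 7), against 7.67% ± 12.7 (n = 5) in 8ND, where mouse 1858 was at 30.2% (exact permutation p = 0.562). Between 8P and 0P it differed by -6.05 points (exact permutation p = 0.380).

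Over A3 and A4 together, the alpha mean was 19.8% ± 9.78 in 0P (SD, n = 5) and 8.88% ± 11.6 in 0ND (n = 6), 10.9 points apart (exact permutation p = 0.134). The paired difference was 15.2 points in 5 mice (p = 0.0625 by the exact sign-flip permutation test, as low as 5 pairs allow). The 8P mean was 9.70% ± 5.92 (n = 7), which exceeded 8ND by 0.636 points (exact permutation p = 0.884) and differed from 0P by -10.1 points (exact permutation p = 0.0518). With both lesions of mouse 1856 averaged, the latter was -9.63 points (exact permutation p = 0.0974). With Benjamini-Hochberg adjustment over the 13 cluster comparisons made, the p of 8P against 0P was 0.673 and that of 0P against 0ND was 0.872.

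The other alpha sites were intermediate and uneven in 8P lesions. A1 was 17.1%, 43.2%, 50.2%, 53.9% and 79.0% in 5 lesions, with 20 to 31 reads each. A2 was 0%, 12.9%, 13.5%, 22.8% and 68.9% in 5 lesions. A5 was 0% (of 29 reads), 56.4% (of 37) and 78.7% (of 24) in 3 lesions. The values of A1 and A5 spanned most of the scale. In 0P, A2 was 0% in both covered lesions, with 26 and 38 reads. Single libraries of other groups covered A5 at 76.4% in 0P and 32.8% in 2ND, and A1 at 0% of 22 reads in 0P.

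Beta cluster. Both covered beta sites were mostly methylated in 8P lesions. B1 (37635526) was 55.8%, 62.7% and 84.9% in 3 lesions, and B2 (37669788) was 67.6%, 79.0%, 88.1% and 100% in 4. Means were 67.8% ± 15.2 (SD, n = 3) and 83.7% ± 13.7 (n = 4). No other group covered them in 3 libraries, and the one 8ND library that covered B2, of mouse 1856, was at 100% of 67 reads. The 19 beta sites were therefore also pooled per library, where at least 20 reads were had in all. The pooled level was 66.3% ± 19.8 in 8P (n = 7), from 28.0% to 90.0%, and 58.3% ± 28.9 in 0P (n = 4), from 30.7% to 93.8%. The difference of 7.97 points lay within the spread (exact permutation p = 0.579). In 2ND the pooled level was 71.8% ± 15.0 (n = 6), and the remaining epithelium groups had 1 such library or none. A pooled level also depends on which sites the reads fell on, which differed between libraries.

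Gamma cluster. The 8 gamma sites fell into 3 levels. G1 (37966017), G2 (37966041) and G3 (37968222) were unmethylated. G2 was at 0 in 33 of 35 libraries, with 3 methylated reads of 19074 in all. G1 had 0 of 827 reads in 19 libraries and G3 had 0 of 148 reads in 5, which allows a raw level of up to 0.363% and 2.03% over the libraries together. G2 was covered in the epithelium of each diet and in polyps, and its differences between groups were 0.325 points or less in size (exact permutation p = 0.444 or above). G3 was covered in polyps and in 1 library of 2ND only, and below the minimum of reads the 0P lesion of mouse 1809 had 8 of 8 reads methylated there. These limits cover counting error only.

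G4 (37979681), G5 (37980099) and G6 (37981223) were mostly methylated. G4 was 61.1%, 65.3%, 73.7% and 87.9% in 8P, 59.9%, 100% and 100% in 0P, and 58.7%, 70.2%, 74.6% and 77.0% in 2ND. It differed between 8P and 0P by -14.6 points (exact permutation p = 0.343), within the spread of 3 and 4 lesions. One 8ND library of the second cohort, of mouse 1830, had 0% of 21 reads there. G5 averaged 97.8% ± 4.81 in 8P (SD, n = 5) and 89.5% ± 5.04 in 2ND of the first cohort (n = 3), which were not compared across cohorts. G6 was 80.9%, 92.5% and 100% in 3 lesions of 8P, and the one 8ND library that covered it, of mouse 1830, was at 100% of 30 reads.

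G7 (37981819) and G8 (37982605) were low to intermediate. G7 was 20.8%, 29.7% and 33.3% in 8P. G8 was 0%, 10.9%, 24.0%, 26.2%, 26.5%, 38.2% and 65.6% in the 7 lesions, with 21 to 91 reads. In the one lesion that covered both G6 and its neighbour G7, that of mouse 1848, the level was 80.9% at the first and 33.3% at the second. No gamma site met the criteria of the study in any comparison. Over G1, G2 and G4, the 3 gamma sites covered in both groups, the mean of 8P differed from that of 0P by -5.85 points (exact permutation p = 0.221). G1 and G2 were at 0 in all these lesions, and lesions without G4 entered at the mean of the 3 sites. The value therefore rests on G4 alone and is no test of the cluster.

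**Figure D4:**
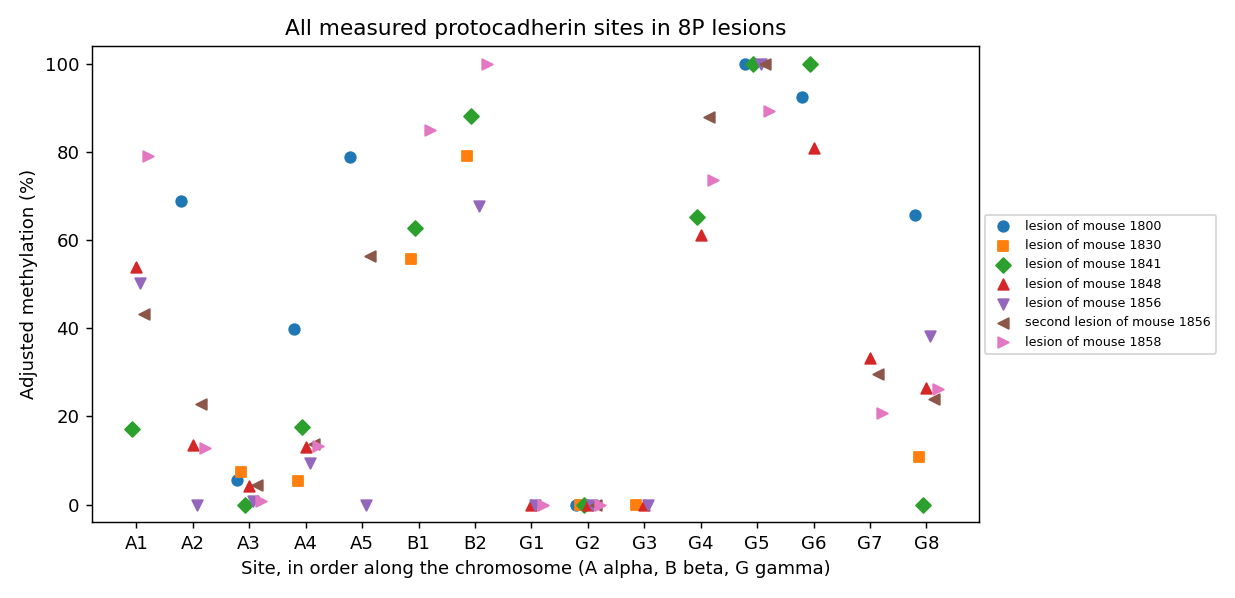
Adjusted methylation (%) of all 15 covered clustered protocadherin sites in the 7 lesions of 8P, in order along the chromosome and not to scale, with one symbol and colour per lesion. G1 to G3 lie at 0 in all lesions, B1, B2 and G4 to G6 lie at 55.8% or above, and A1, A2, A4, A5 and G8 spread widely, with the lesion of mouse 1800 highest at A2, A4, A5 and G8.

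Intermediate levels and spread. In 8P, 7 of the 15 sites had a mean between 20% and 80% (46.7%), compared with 34.9% of all 56601 sites covered in 8P and 9 of 24 covered sites in the gaps and within 0.3 Mb of the clusters. In the other groups 0 to 2 of the 3 to 7 covered protocadherin sites were intermediate, beside 14.4% to 22.3% of all sites covered in those groups. With so few sites these counts lie near those shares. Of the intermediate sites of 8P, A1, A5, B1, G7 and G8 were covered in no other group, so the counts of 8P and of the other groups cannot be compared. At 6 of the 7 intermediate sites of 8P the SD between lesions exceeded that expected from read counts alone, and at G7 it was lower, at 6.42 points against 9.42. Over all groups, of 31 sets of a site and a group with a mean over 1%, the SD between libraries exceeded that from counting in 28, and exceeded 2 times that value in 17. Separate animals and lesions commonly differ by more than counting error, so these counts are a description. At A4 in 8P the SD was 11.2 points against 1.61 from counting, and in 2ND it was 6.31 against 1.80. Without the lesion of mouse 1800 the SD in 8P was 4.25.

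This spread was not uniform beside that of other sites with a similar mean (0.8 to 1.25 times that of the site). Those sites were also covered in the same number of libraries and passed a minimum of median reads. The SD at A4 lay at percentile 90.0 of 459 such sites in 8P, with the lesion of mouse 1800 included, and 94.2 of 155 in 0ND of the second cohort, but at 27.6 of 58 in 0P and 11.8 of 262 in 8ND of the first cohort. At A3 it lay at 7.10 of 310 in 2ND and 97.4 of 115 in 0ND of the second cohort. The latter includes mouse 1805, at 33.86% from 36 reads, where the next value was 8.16%. A wide spread was therefore no constant feature of either site.

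**Figure D5:**
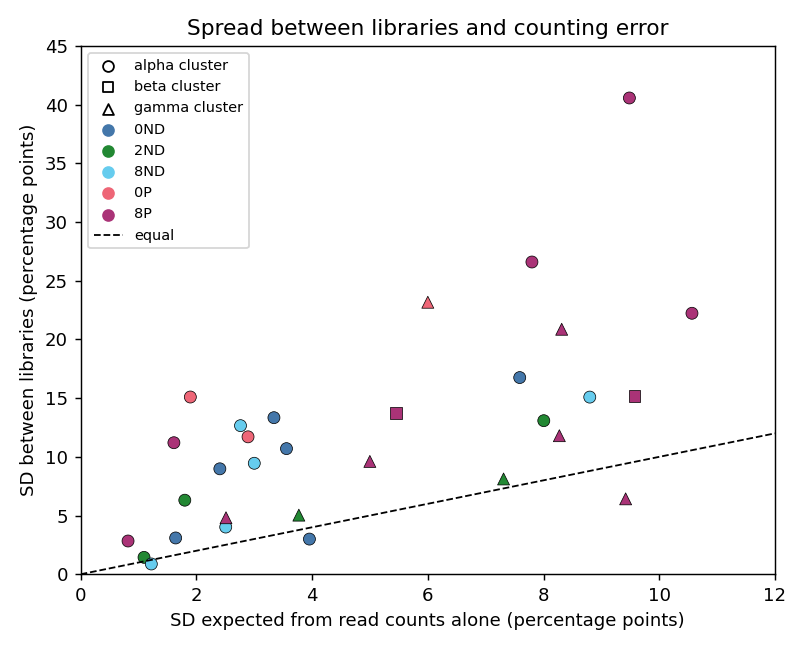
SD of adjusted methylation between the libraries of a group against the SD expected from read counts alone (both in percentage points), one point per site and group with a mean over 1%, with shape for the cluster and colour for the group. Of 31 points, 28 lie above the dashed line of equal values.

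Among the 8P lesions, that of mouse 1800 was the highest at A2 (68.9%, next 22.8%), A4 (39.9%, next 17.7%), A5 (78.7%, next 56.4%) and G8 (65.6%, next 38.2%), but not at A3 (5.49%, where the highest was 7.46%). It was singled out after its values were seen. The 6 pairs with this lesion differed by 16.8 to 30.0 points on average over 4 to 7 shared protocadherin sites, and the 15 other pairs by 4.54 to 16.3 points over 4 to 9 sites. These pairs include the sites by which the lesion was chosen, so the gap between them is fixed by that choice. Over all shared sites of the genome, which are far more numerous, the same pairs differed by 8.73 to 10.2 and by 8.20 to 10.5 points. Both lesions of mouse 1856 differed by 13.6 points over 8 sites, inside the range of lesions from different mice, which was 4.54 to 30.0 points with a median of 12.5. At A5 one of them was at 0% and the other at 56.4%.

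Change over the region. Sites in the gaps between clusters and within 0.3 Mb of them were compared in the same way. In 0P against 0ND, 3 of these 4 sites were lower and 1 was higher, whereas A3 and A4 were higher and G2 was equal. The site at 36823757 was 7.48% ± 4.98 in 0P and 20.8% ± 15.8 in 0ND (n = 6 each, exact permutation p = 0.0346), the direction opposite to A4. In 8P against 8ND, 1 of 4 was lower and 3 were higher, beside A3 lower and A4 higher. In 8P against 0P, 8 of 11 were higher and 3 lower, beside 3 protocadherin sites lower (A3, A4 and G4) and 2 equal. None of these neighbouring sites met the criteria of the study in polyps, which use an equal-variance test and not the permutation p. In first-cohort epithelium 1 of 6 met them in 2ND against 0ND, at 38256965 (26.5% ± 4.86, n = 6, against 43.1% ± 13.6, n = 3, exact permutation p = 0.0476). The covered sites did not move in one direction across the clusters and their surroundings, and A4 was the single site that met the criteria of the study in any comparison of these clusters. No beta site and 1 to 3 gamma sites were covered in both groups of a polyp comparison, so a change over those clusters was not detectable at this coverage.

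Sites just outside the coverage rule had levels of the same kinds. The beta site at 37633555 had at least 20 reads in 4 libraries, spread over 3 groups, at 0%, 30.7%, 39.8% and 88.6%. The gamma site at 37945815 was at 52.1%, 61.2% and 62.9% in 3 libraries, and that at 38002087 was at 0%, 71.7% and 93.9%. Just inside the rule, A5, B1, G3, G6 and G7 had exactly 3 covered lesions of 8P.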

How the data were processed

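DNA methylation was measured by Digital Restriction Enzyme Analysis of Methylation (DREAM) in 43 libraries. SmaI cuts unmethylated CCCGGG sites, XmaI then cuts the methylated ones, and the end of each sequenced fragment tells which enzyme cut. The authors deposited, for each library and site, counts of methylated and unmethylated reads and a raw and an adjusted methylation percent, the latter corrected with spiked standards. The submitters' processing notes name Bowtie2, SAMtools and mm9. In 3696603 values checked, the adjusted percent equalled the raw odds times 1 factor per library (to 0.1 points). That factor was 1.24 to 4.04 in the first cohort and 0.992 to 1.97 in the second, so that first-cohort levels rest on larger corrections.

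Analyses used Python 3.11.15, numpy 2.4.6, scipy 1.17.1, pandas 2.3.3, R 4.3.3 and limma 3.58.1. A value needed 20 reads. The text names every member, and sites were compared where at least 3 libraries of both groups covered them. Sites were tested over the whole genome with the study's criteria in an equal-variance two-group test, and single values with two-sided exact permutation tests over libraries, without adjustment between sites unless stated. Where the labels give the same mouse number, the libraries are from 1 animal and sign-flip tests within mice were added. Their deviations correlated weakly (mean r 0.0297 for 0P with 0ND and 0.0747 for 8P with 8ND). Cluster means used the sites covered in every library, or, where there were none, in at least 3 libraries of each group. Beta counts were pooled. Scripts were tested on simulated data. The members and lists were chosen with earlier results of these data known. Alternatives were coverage minimums of 10 and 50, raw percentages, centring, limma, a quasi-binomial model and leaving out libraries.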

Additional observations from a re-analysis of the deposited data

Results flagged for a closer look

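Of 25 sets of a site and a group with 4 to 10 libraries, 6 had one library far from the rest by the gap to its neighbour relative to the range of the set. For normally distributed values, chance gives such a gap in about 1 in 20 sets, or 1.25 of these 25. In 3 of the 6 (both at G2, and at G5) all other libraries were at 0 or 100%. Any other value makes such a gap there, and that share does not apply. The A3 sets hold percentages mostly near 0 from unequal read counts, so the share may not apply to them either. At A3, mouse 1805 was at 33.86% in 0ND of the second cohort (36 reads, next 8.16%), and mouse 1858 was at 30.17% in 8ND of the second cohort (42 reads, next 3.88%). Both rest on few reads, and in both libraries A4 was also the highest of its group. At A4 the 8P lesion of mouse 1800 was at 39.91% (911 reads, next 17.68%). At G2 1 mouse was at 1.3% in 0ND (2 of 616 reads methylated) and mouse 1858 at 0.44% in 8ND (1 of 490 reads methylated) of the first cohort, where all other libraries were at 0. At G5 the 8P lesion of mouse 1858 was at 89.24% (24 reads), where the other 4 were at 100%. The causes were not tested.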

How the results depend on the processing

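Coverage of the sites limits most of these values, since 8 of the 15 sites were covered only in 8P and many values rest on 20 to 40 reads. The alpha difference of 2ND from 0ND, near 0, was above 0 with a minimum of 10 reads (2.18 points), raw percentages (0.0736), centred libraries (0.323), sites covered in 3 libraries of each group (0.841) and pooled counts (1.24), and ranged from -1.97 to 1.74 without single 0ND libraries. That of 8ND from 0ND was 0.0795 after centring and -2.23 to 1.48 without single libraries in the first cohort. In the second it was -1.96 with 10 reads, -0.516 on raw percentages and -1.78 without the libraries with over 8% of reads on 100 sites. That of 8P from 8ND was -1.18 with pooled counts. That of 8P from 0P was -11.2 on raw percentages (exact permutation p = 0.0278) and -17.5 with pooled counts (exact permutation p = 0.0455). Both count the lesions of mouse 1856 separately. The pooled 0P values include the lesion of mouse 1805, at 80.5% from 50 reads, which lacked the reads to enter the mean over A3 and A4. In gamma, 2ND minus 0ND was 1.01 after centring (exact permutation p = 0.0159) and 10.9 with pooled counts, and -0.433 to 0 without single libraries. There 8ND minus 0ND was 0.919 after centring, -11.7 with pooled counts and -0.360 to 0.0733 without single libraries, and 0P minus 0ND was 1.64 after centring (exact permutation p = 0.0286). At sites that are at 0 in nearly all libraries, centring subtracts each library's own genome mean, so these differences are those of the means. The count for 0P against 0ND was 0 with 20 reads in every library, where 0 sites were left to test, and 0 with adjusted p, and that for 8P against 0P was 1 on raw percentages.

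At A4, 2ND minus 0ND ranged from -2.65 to 3.35 without single 0ND libraries. In the first cohort 8ND minus 0ND ranged from -1.90 to 4.10 so, and was -0.179 on raw percentages and -0.656 without 2 libraries of 8ND with over 30% of reads on standards. That limit was applied to 8ND of the first cohort only. In the second cohort every 0P library was above it, as were some 0ND, 8ND and 8P libraries, and none was left out for it. In the second it ranged from -3.56 to 3.30, and was -1.67 with 10 reads, -0.836 on raw percentages, -0.585 without mouse 1856 of 8ND and -2.81 without the libraries with over 8% of reads on 100 sites. With 10 reads and the lesions of mouse 1856 counted separately, 8P minus 0P was -25.7 (exact permutation p = 0.0245), since the lesion of mouse 1805 entered at 100%. With the mouse as a replicate block, A4 differed by 23.0 points between 0P and 0ND (exact sign-flip permutation p = 0.0625, limma p = 0.0269, limma adjusted p = 0.794). The pairing changed no count of called protocadherin sites. The beta cluster gave no value except in 8P against 0P. The causes of these shifts were not tested unless stated.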
